A study of Rattus norvegicus with 9 samples.

Results

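The genes described here encode the proteasome: its subunits, its activators and inhibitor, and the chaperones that help to assemble it. Members were the genes whose RefSeq symbol starts with Psma, Psmb, Psmc, Psmd, Psme, Psmf or Psmg and whose expected count (the RSEM estimate of fragments per gene) reached 10 in at least 3 of the 9 libraries. That rule gave 49 of 13752 gene IDs. By role these were 7 subunits of the alpha ring, 7 of the beta ring, 3 immunoproteasome subunits, the thymoproteasome subunit Psmb11, 17 subunits of the 19S cap, 3 cap chaperones, 3 core chaperones, 4 activators and the inhibitor Psmf1. The other 3 members were Psmb6l1, a Psmb6-like gene, and Psmc3ip and Psme3ip1, which share the prefix but are named for binding a subunit and are not subunits. The rule used the counts of all libraries together and no difference between groups. Just inside it stood Psmb11, with at least 10 counts in 8 libraries and 4.15 to 36.87 counts, and just outside it Psma8, the alpha subunit of the testis, with 10 counts or more in 2 libraries and 2.9 to 11.5 counts. The other 48 members had at least 10 counts in all 9 libraries, and all 49 passed the filter of the test. RefSeq annotates all 49 as protein coding.

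The proteasome degrades proteins that carry ubiquitin chains. Its 20S core is a barrel of alpha and beta rings with the proteolytic sites inside, and Psmb5, Psmb6 and Psmb7 carry those sites; in the immunoproteasome Psmb8, Psmb9 and Psmb10 take their places, induced by interferon and abundant in immune cells. The 19S cap recognises, unfolds and threads the substrate, and other activators open the core without ubiquitin. In skeletal muscle the ubiquitin-proteasome pathway is known as a main route of myofibrillar protein loss during atrophy, including the atrophy that follows loss of the nerve.

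All libraries came from the gastrocnemius of male rats aged 8 weeks, a muscle of the calf whose motor axons run in the sciatic nerve, by messenger RNA sequencing on a BGISEQ-500. SHAM was a sham operation, DN a sciatic nerve injury without treatment, and DN-SM a sciatic nerve injury with electrical stimulation every day for 4 weeks starting at surgery, through electrodes on the skin (25 V and 1 mA, in pulses 300 ms wide at 2 Hz), with 3 libraries in each group. SHAM and DN rats were anaesthetised and had electrodes placed too, but received no current. The labels do not give the kind of nerve injury, the time at which SHAM and DN muscle was collected or whether each library came from its own animal, so p-values measure the spread between these libraries. DN against SHAM and DN-SM against SHAM share the SHAM libraries, and the DN libraries enter both DN against SHAM and DN-SM against DN, so these comparisons are not independent.

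Total expected counts were 7926445 to 8893843 per library. Muscle fibre markers dominated in all libraries. The summed level of the 6 that were measured (of 8 written) was 107732.8 to 113193.9 FPKM in SHAM, 122823.9 to 135105.7 in DN and 119397.7 to 128623.9 in DN-SM. FPKM is a level per transcript length and sequencing depth. On this sum DN and DN-SM lay above SHAM in every library, while 0 of the 6 were called in any comparison. The SHAM libraries differed among themselves. Over all genes replicate 2 was farthest from the others (chi-square per degree of freedom 72.3 against replicate 1 and 44.07 against replicate 3, with 24.78 between replicates 1 and 3). Replicate 3 was the lowest SHAM library for several members, and leaving it out raised the genes called in DN against SHAM from 432 of 10129 to 1183 of 10298. Values without a library are given below for several members that moved with it. Markers of other cells differed between groups. The summed level of 8 Schwann cell markers was 71.8 to 78 FPKM in SHAM, 150.4 to 329.6 in DN and 86.8 to 188.4 in DN-SM. In DN against SHAM 3 of 8 were called higher (Mbp, Ngfr and Cnp), where 260 of the 10129 genes tested were. All 8 had a log2 fold change above 0 (median 1.03) and were higher in DN without overlap on FPKM, as 15.9% of all genes were. The summed level of 8 endothelial markers was 116.1 to 135.4, 170.7 to 219.9 and 154.5 to 162.3 FPKM. Of these 4 of 8 were called higher in DN against SHAM (Pecam1, Cdh5, Egfl7 and Esam). A log2 fold change above 0 was found for 7 of 8 (median 0.62), against 48.7% of all genes. Leukocyte and macrophage markers (20 measured) summed to 58.2 to 94.2, 68.9 to 106.5 and 54.2 to 84.2 FPKM, with 0 of 14 tested called, and Cd3e, Cd3g, Cd79b and Nkg7 were among those listed at 0 in at least 1 library. Fibroblast markers (6 genes) summed to 276.9 to 659.8, 400.9 to 591.2 and 282.4 to 404.8 FPKM and adipocyte markers (5 genes, Lep listed at 0 in at least 1 library) to 72.5 to 83.9, 95.9 to 133.9 and 93.4 to 123.3 FPKM, with 0 called in DN against SHAM. Of the 4 adipocyte markers tested, 4 had a log2 fold change above 0 in DN against SHAM (median 0.62). Only 1 of 4 did in DN-SM against DN (median -1.1) and 1 of 4 in DN-SM against SHAM (median -0.49). Between DN-SM and SHAM the adipocyte sum and most of its markers thus went opposite ways. In bulk tissue fewer cells of a type and less RNA per cell cannot be told apart, and the part of these cells in the results below was not tested.

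The upstream sequences of 4 members are shown as examples of the motifs searched: the immunoproteasome gene whose groups did not overlap on FPKM (Psmb10), a pair of constitutive beta-ring genes (Psmb5, and Psmb2 for its overlapping motifs) and the activator with the smallest p in DN against SHAM (Psme4). Each line gives the 100 bases directly before the start of the gene in RefSeq's table for the build GRCr8, read 5′ to 3′ on the gene's own strand, with motif matches in capitals. Psmb10, at chr19:50743293-50743392 on the minus strand, holds the core of the interferon response element, GAAA, any 2 bases and GAAA, at 2 places.
Psmb10: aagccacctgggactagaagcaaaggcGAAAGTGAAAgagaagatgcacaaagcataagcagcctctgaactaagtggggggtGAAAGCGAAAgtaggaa
Psmb5, at chr15:32047380-32047479 on the minus strand, holds TGACNNNGC, the core of the antioxidant response element to which the regulators of proteasome genes Nfe2l1 and Nfe2l2 bind.
Psmb5: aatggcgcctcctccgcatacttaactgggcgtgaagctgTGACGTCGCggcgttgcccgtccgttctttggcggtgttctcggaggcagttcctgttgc
Psmb2, at chr5:144254958-144255057 on the plus strand, holds CCAAT, the box bound by NF-Y, overlapping TGACNNNGC.
Psmb2: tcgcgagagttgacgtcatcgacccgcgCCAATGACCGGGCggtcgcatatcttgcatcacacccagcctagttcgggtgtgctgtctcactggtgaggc
Psme4, at chr14:108706543-108706642 on the plus strand, holds TGACNNNGC on its minus strand, so the capitals show its reverse complement.
Psme4: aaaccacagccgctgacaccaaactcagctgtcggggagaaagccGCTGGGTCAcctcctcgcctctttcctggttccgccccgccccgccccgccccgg

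Motifs were searched on both strands of the 250 bases before the start that RefSeq's promoter sequence uses, and 44 of the 49 members had a sequence. For some members that start lies within the span of the gene. The windows of Psma6, Psmb1, Psmd3, Psmd5, Psmd11 and Psme2, among others, lay wholly or in part inside it. TGACNNNGC occurred in 7 members (15.9%: Psma3, Psmb2, Psmb5, Psmb6, Psmd1, Psmd9 and Psme4), against 10.1% of all 33469 promoters of the table. The interferon response core occurred in 5 members (11.4%: Psma4, Psmb3, Psmb10, Psmd7 and Psme2), against 3.41% of all promoters. CCAAT occurred in 21 members (47.7%), against 34%, among them 5 of the 6 alpha-ring genes with a sequence. Of the 3 constitutive catalytic genes Psmb5 and Psmb6 carried TGACNNNGC and Psmb7 did not, and of the 3 immunoproteasome genes Psmb10 alone carried the interferon response core in this window. The TGACNNNGC matches of Psma3 and Psmb6 and the interferon response core of Psme2 lay within the gene span. These are matches of letters and say nothing of binding.

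As a class the proteasome genes differed little between sham, injured and stimulated muscle. The 49 members made up 0.391% to 0.399% of all FPKM in SHAM, 0.37% to 0.417% in DN and 0.371% to 0.378% in DN-SM, so the DN libraries spanned both other groups. By edgeR's quasi-likelihood test 0 of 49 members passed an adjusted p of 0.05 in DN against SHAM, where 4.26% of the 10129 genes tested did; 0 of 49 passed in DN-SM against DN, where 0.00987% did, and 0 of 49 in DN-SM against SHAM, where 0.839% did. At an unadjusted p under 0.05 there were 3 members in DN against SHAM, 1 higher and 2 lower, where 22.3% of all genes were (10.9% higher, 11.4% lower). There were 7 in DN-SM against DN, 6 higher and 1 lower (17.6% of all genes; 11.1% and 6.5%), and 3 in DN-SM against SHAM, 2 higher and 1 lower (12.8%; 6.54% and 6.23%). DESeq2 called 1 member, Psme4, in DN against SHAM (log2 fold change -0.68, DESeq2 adjusted p = 0.0345), 1, Psmc6, in DN-SM against DN (0.89, DESeq2 adjusted p = 0.0485) and 0 in DN-SM against SHAM. The share of all genes that DESeq2 called is not given here, so these calls cannot be set against it. A failure to pass does not show that levels were equal, so the size of the differences is given too. Members and all genes were not matched for abundance, and its part in a gap of size between them was not tested. The median absolute log2 fold change of the members was 0.162 in DN against SHAM, 0.149 when DN-SM was set against DN and 0.118 when it was set against SHAM. Over all genes tested it was 0.241, 0.227 and 0.193, and the median SE of a member was 0.137 each time. Differences smaller than 0.25 on the log2 scale were found for 36, 33 and 44 of the 49 members (73.5%, 67.3% and 89.8%), against 51.3%, 53.8% and 61% of all genes. In the same order, 23, 29 and 26 members had a log2 fold change above 0, where 48.7%, 48.7% and 52.5% of all genes did; on log2 FPKM 31, 18 and 22 members did.

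**Figure D1:**
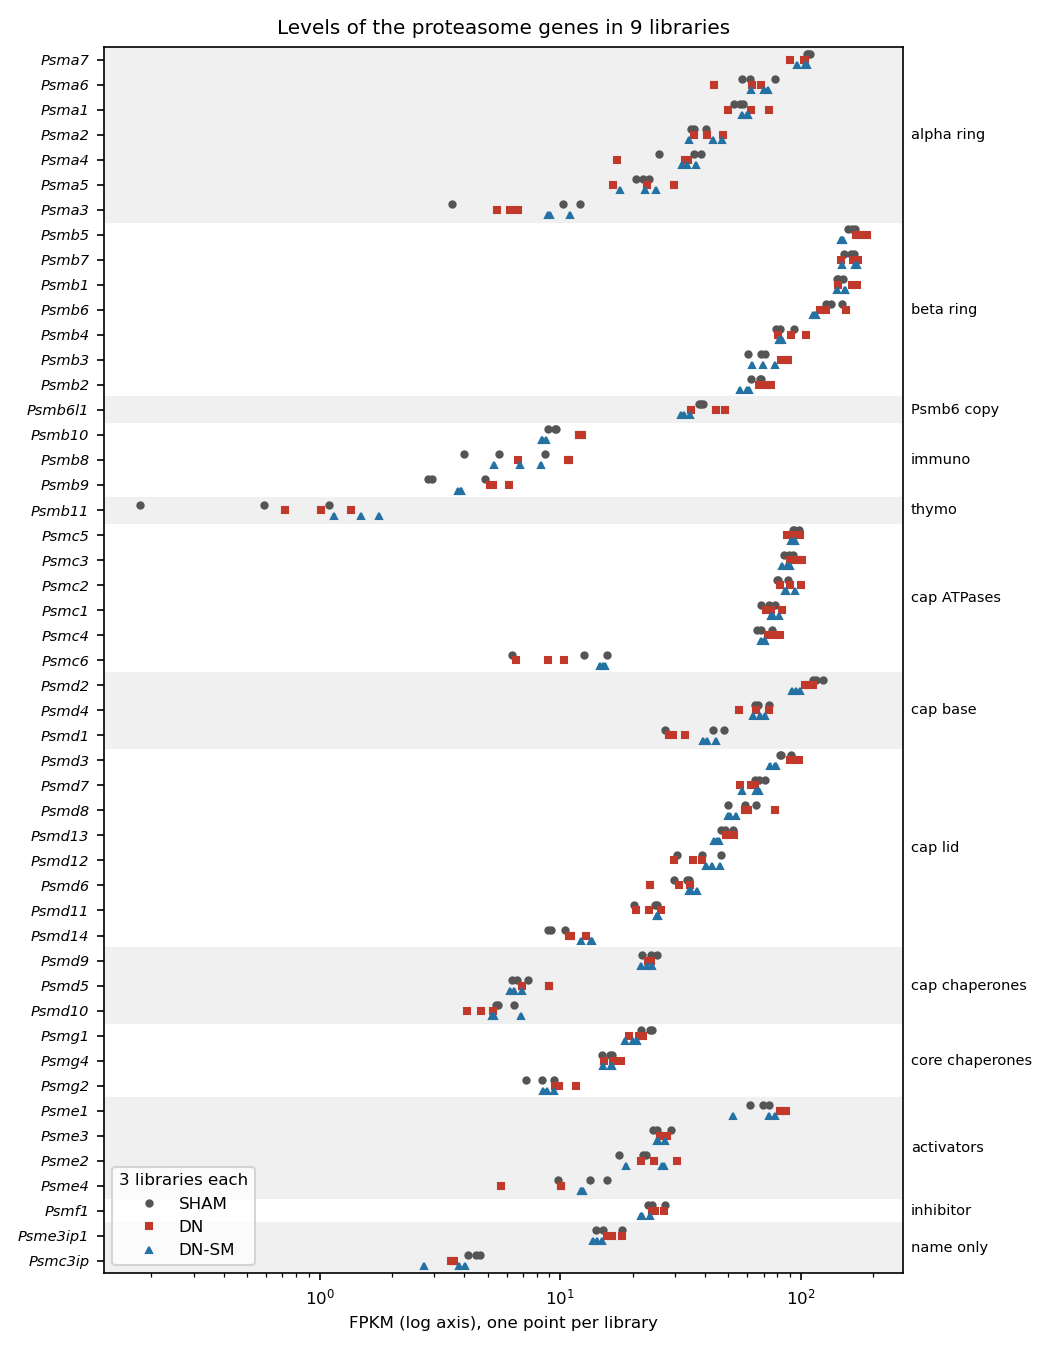
FPKM of the 49 members (log axis) in each of the 9 libraries, 1 point per library, grouped by role and ordered by mean level within a role. Points of the 3 groups lie close together for most members, beta-ring genes sit within a narrow band of mean levels from 65.3 to 163.1 FPKM, and Psma3 and Psmc6 sit far below the other genes of their rings.

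The direction of the class as a whole depended on the scale. The median signed log2 fold change of the members was -0.02 in DN against SHAM, 0.04 in DN-SM against DN and 0.02 in DN-SM against SHAM in the count fit, where the medians of all genes were -0.01, -0.01 and 0.02. On log2 FPKM the same medians were 0.06, -0.05 and -0.00, where those of all genes were 0.05, -0.09 and -0.00. Thus the sign of the members' median turned with the scaling in DN against SHAM and in DN-SM against DN, while in the latter it lay above the median of all genes on both scales. Across members the log2 fold change of DN-SM against DN had a Spearman correlation of 0.34 with transcript length (n = 49; 0.12 across all 10129 genes), that of DN against SHAM -0.21 (-0.13) and that of DN-SM against SHAM 0.13 (-0.00). These correlations are across genes that share the libraries and are given as a description. Members were shorter than the genes tested, with a median transcript of 1334 against 2184 bases.

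**Figure D2:**
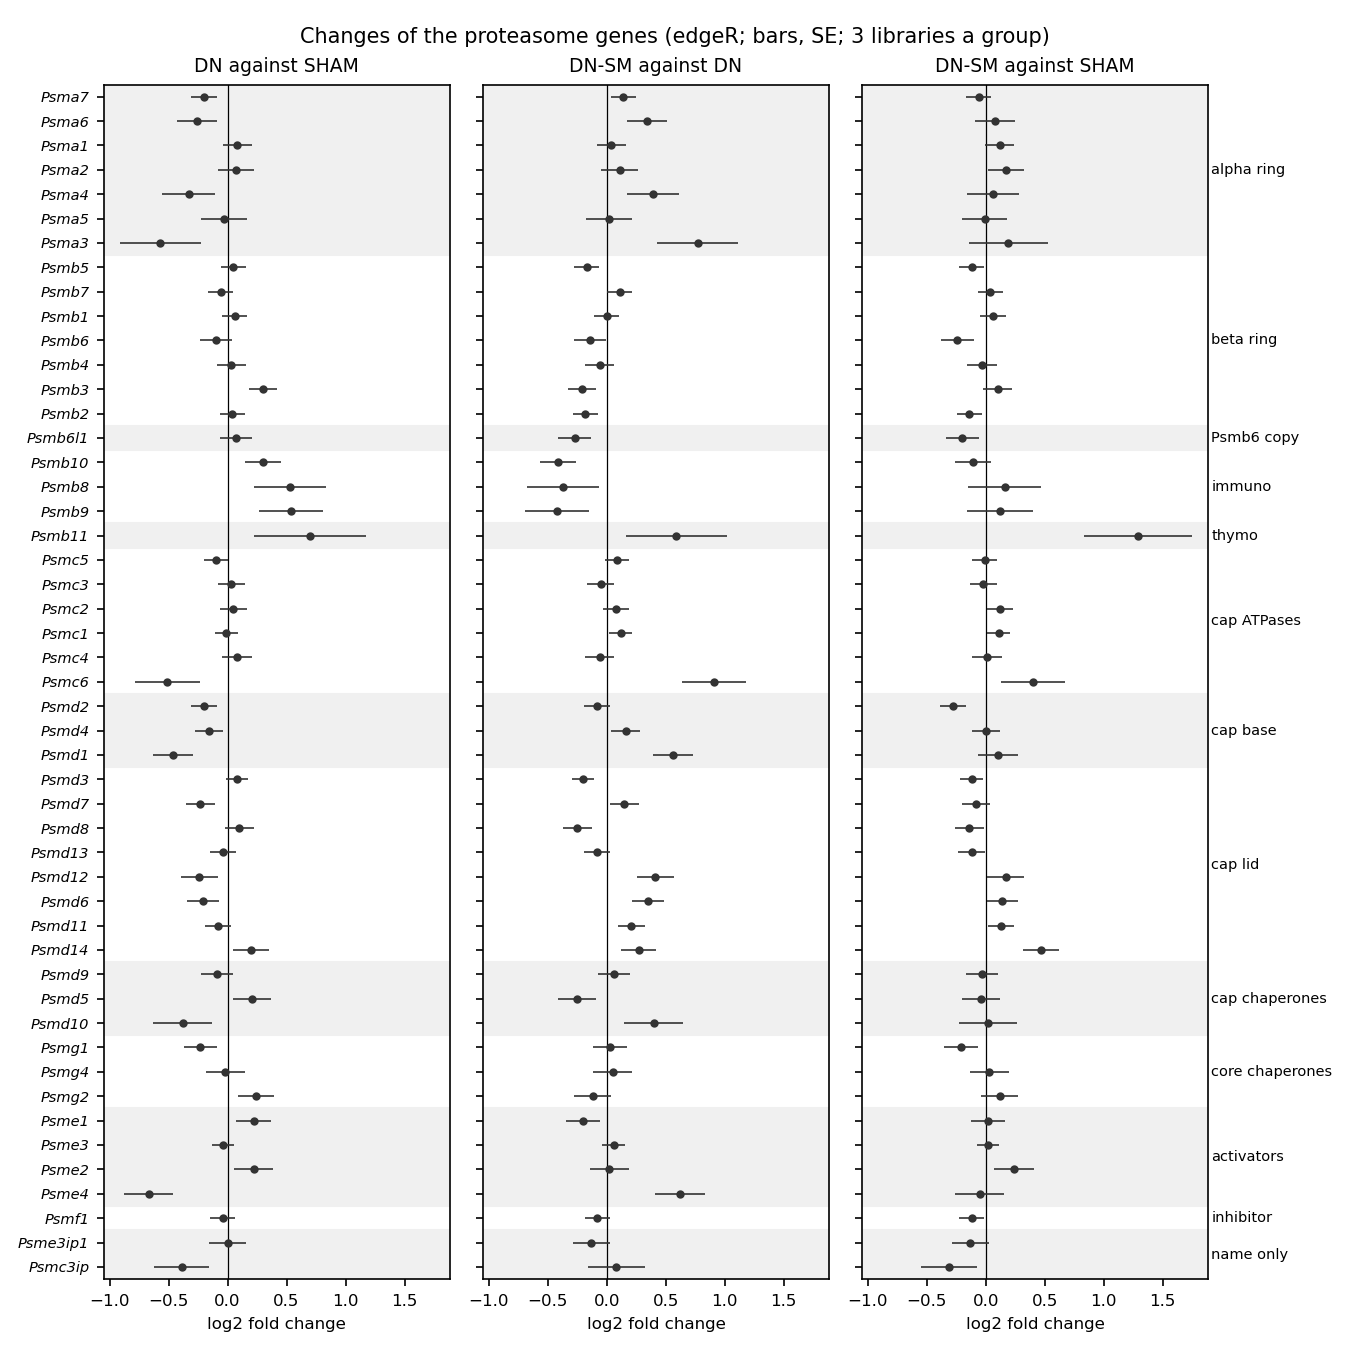
Log2 fold change of each member (points) with its SE (bars) from the edgeR fit, in the 3 comparisons of 3 against 3 libraries, ordered as in the plot of levels. The 3 immunoproteasome genes lie right of 0 in DN against SHAM (0.30 to 0.54) and left of 0 in DN-SM against DN (-0.42 to -0.37), and Psma3, Psmc6, Psmd1 and Psme4 show the reverse.

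The alpha ring forms the gate of the core. Its 7 genes had mean levels from 8.15 FPKM (Psma3) to 102.9 (Psma7), a 12.6-fold range, and a median coefficient of variation within groups of 16.3%. Beta-ring levels spanned 2.5-fold and had a median coefficient of variation of 7.2%. FPKM is a level per length of the transcript in the files, and that of Psma3 was 1993 bases, the longest of the ring. Psma3 was at 10.28, 12.12 and 3.55 FPKM in SHAM replicates 1 to 3, at 5.45, 6.16 and 6.70 in DN and at 9.11, 11.02 and 8.93 in DN-SM. DN-SM lay above DN in every library, while SHAM held both the highest and the lowest value of all 9. The log2 fold change of Psma3 was -0.57 (SE 0.34, edgeR adjusted p = 0.357) in DN against SHAM and 0.77 (SE 0.34, edgeR adjusted p = 0.280) in DN-SM against DN. Without SHAM replicate 3 these became -0.94 (edgeR adjusted p = 0.00685) and 0.77 (0.0228), while without SHAM replicate 2 the former was -0.18 (edgeR adjusted p = 0.833), and in a fit of DN and DN-SM alone the latter was 0.77 (0.00834). The expected counts of Psma3 were fractional in all 9 libraries and RefSeq lists 2 symbols of copies, so its reads can be shared with other loci. Psma7 was at 107.63, 108.84 and 106.37 FPKM in SHAM, 90.19, 102.64 and 104.13 in DN, then 103.99, 105.64 and 96.29 in DN-SM. On FPKM its SHAM libraries lay above all 6 others, by a small margin (DN against SHAM -0.20, SE 0.11, edgeR adjusted p = 0.288). On counts scaled to library size SHAM overlapped both other groups. The summed level of the ring was 309.4 to 352.9 FPKM in SHAM, 258.9 to 362.8 in DN and 326.3 to 355.6 in DN-SM; its lowest value, DN replicate 1, was also the lowest library for 5 of the 7 genes (Psma1, Psma4, Psma5, Psma6 and Psma7). The 7 genes had log2 fold changes of -0.57 to 0.08 in DN against SHAM, 0.02 to 0.77 in DN-SM against DN and -0.06 to 0.19 in DN-SM against SHAM.

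The beta ring carries the active sites. Its constitutive catalytic genes were among the most abundant members. Psmb5, the chymotrypsin-like site, was at 163.46, 157.46 and 167.76 FPKM in SHAM, 187.75, 170.16 and 176.40 in DN, with 148.14, 147.30 and 149.46 in DN-SM, so the FPKM of the 3 groups did not overlap and DN was highest. The count fit gave it 0.05 (SE 0.11, edgeR adjusted p = 0.807) in DN against SHAM and -0.17 (SE 0.11, edgeR adjusted p = 0.407) in DN-SM against DN, and on counts scaled to library size (CPM) DN and SHAM overlapped. Psmb6, the caspase-like site, was at 134.03, 127.00 and 149.05 FPKM in SHAM, 154.46, 126.86 and 120.30 in DN, then 112.93, 115.99 and 114.39 in DN-SM. On FPKM all DN-SM libraries lay below the others, with a log2 fold change of -0.24 (SE 0.14, edgeR adjusted p = 0.503) against SHAM. On CPM DN-SM and DN overlapped (-0.14, SE 0.14). Psmb6 and the similar gene Psmb6l1 both had fractional expected counts in all 9 libraries, as arise where reads fit more than 1 transcript, so the level of Psmb6l1, 31.86 to 48.54 FPKM, is uncertain. It made up 20.5% to 23.6% of the sum of both genes in SHAM, 18.5% to 28.7% in DN and 22% to 23.2% in DN-SM. The sum itself was 166.2 to 187.4, 168.8 to 189.4 and 144.8 to 148.9 FPKM, again lowest in DN-SM. Psmb7, the trypsin-like site, was at 161.60, 167.15 and 150.66 FPKM in SHAM, 147.00, 165.18 and 172.75 in DN, with 148.30, 167.64 and 172.01 in DN-SM, with overlap of all groups (DN against SHAM -0.06, SE 0.11; DN-SM against DN 0.11, SE 0.11). Of the non-catalytic genes Psmb3 differed most, with 68.52, 60.34 and 71.19 FPKM in SHAM, 88.89, 82.49 and 87.88 in DN, then 62.71, 69.82 and 78.24 in DN-SM. Its DN libraries lay above all others on FPKM (DN against SHAM 0.30, SE 0.12, edgeR adjusted p = 0.164), and RefSeq lists 10 symbols of Psmb3 copies. The remaining beta genes Psmb1, Psmb2 and Psmb4 had log2 fold changes of 0.03 to 0.06 in DN against SHAM and -0.18 to 0.00 in DN-SM against DN.

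The immunoproteasome genes stood at a few percent of the genes they replace and were higher in DN on average, though none passed the test. Psmb8, the inducible counterpart of Psmb5, was at 3.99, 5.56 and 8.69 FPKM in SHAM, 6.67, 10.74 and 10.92 in DN, with 6.82, 5.29 and 8.31 in DN-SM. SHAM replicate 3 lay above DN replicate 1, so the groups overlapped, and the log2 fold change was 0.53 (SE 0.30, edgeR adjusted p = 0.329) in DN against SHAM and -0.37 (SE 0.30, edgeR adjusted p = 0.535) in DN-SM against DN. Psmb9, the counterpart of Psmb6, was at 2.81, 2.94 and 4.89 FPKM in SHAM, 5.28, 6.10 and 5.10 in DN, then 3.89, 3.88 and 3.78 in DN-SM. DN lay above both other groups in every library on FPKM, with 0.54 (SE 0.27, edgeR adjusted p = 0.263) and -0.42 (SE 0.27, edgeR adjusted p = 0.426). Its expected counts were only 20 to 46 per library, with 39 in both SHAM replicate 3 and DN replicate 3, and on CPM DN and SHAM overlapped. Psmb10, the counterpart of Psmb7, was at 9.64, 8.88 and 9.48 FPKM in SHAM, 11.93, 11.92 and 12.34 in DN, with 8.42, 8.40 and 8.74 in DN-SM. Its groups did not overlap on FPKM: DN was highest, then SHAM, then DN-SM, with SDs of 0.40, 0.24 and 0.19 FPKM in SHAM, DN and DN-SM. Its log2 fold changes were 0.30 (SE 0.15, edgeR adjusted p = 0.271) in DN against SHAM, -0.41 (SE 0.15, edgeR adjusted p = 0.213) in DN-SM against DN and -0.11 (SE 0.15, edgeR adjusted p = 0.812) in DN-SM against SHAM. Psmb10 was the 1 member above both other groups in DN on CPM as well as on FPKM; on CPM 5.48% of all genes had that pattern. On FPKM 6 of 49 members had it (Psmb3, Psmb5, Psmb9, Psmb10, Psme1 and Psmg2), against 8.37% of all genes. Without SHAM replicate 3 the values in DN against SHAM were 0.90 for Psmb8 (edgeR adjusted p = 0.0608), 0.87 for Psmb9 (edgeR adjusted p = 0.0487) and 0.33 for Psmb10 (edgeR adjusted p = 0.212). Without SHAM replicate 1 they were 0.25 (edgeR adjusted p = 0.655), 0.34 (0.525) and 0.24 (0.451), so the sizes for Psmb8 and Psmb9 moved with single SHAM libraries. In DN-SM against DN leaving out a library gave -0.54 to -0.21 for Psmb8, -0.51 to -0.33 for Psmb9 and -0.43 to -0.38 for Psmb10.

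As shares of each catalytic pair, the inducible form was small in every library. Psmb8 made up 2.38%, 3.41% and 4.92% of the summed FPKM of Psmb8 and Psmb5 in SHAM, 3.43%, 5.94% and 5.83% in DN, then 4.40%, 3.47% and 5.27% in DN-SM, with overlap between all groups. Psmb9 made up 1.61%, 1.74% and 2.54% of Psmb9, Psmb6 and Psmb6l1 in SHAM, 2.71%, 3.44% and 2.93% in DN, with 2.62%, 2.54% and 2.47% in DN-SM, with DN above the other libraries by a narrow gap. Of Psmb9 and Psmb6 alone it made up 2.05%, 2.26% and 3.18% in SHAM and 3.31%, 4.59% and 4.07% in DN, against 3.33%, 3.24% and 3.2% in DN-SM, so without Psmb6l1 the DN and DN-SM shares overlapped. Psmb10 made up 5.63%, 5.04% and 5.92% of Psmb10 and Psmb7 in SHAM, 7.51%, 6.73% and 6.67% in DN, then 5.37%, 4.77% and 4.84% in DN-SM, where DN stood clear of both other groups. Levels of the 3 immunoproteasome genes summed to 16.4 to 23.1 FPKM in SHAM, 23.9 to 28.8 in DN and 17.6 to 20.8 in DN-SM. By group means the endothelial, Schwann cell, adipocyte, muscle fibre and leukocyte marker sums were likewise highest in DN, and the fibroblast sum was not. Only the endothelial sum lay above both other groups in every DN library, and the leukocyte sum overlapped between all groups. The part of any of these cells in the immunoproteasome values was not tested.

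**Figure D3:**
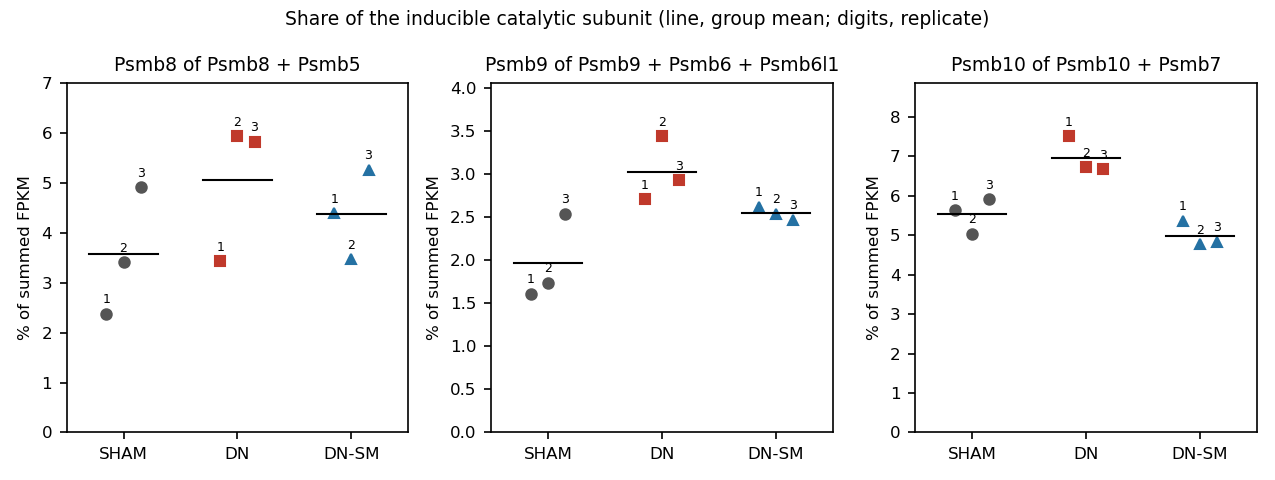
Inducible subunit as a percentage of the summed FPKM of its catalytic pair, by group (points are libraries with their replicate number, lines are group means, axes start at 0). Psmb10 lies between 6.67% and 7.51% in DN and between 4.77% and 5.92% in the other groups, while the Psmb8 shares overlap.

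Psmb11, the thymus-specific catalytic subunit, was at the edge of detection, with 0.59, 0.18 and 1.09 FPKM in SHAM, 1.35, 0.72 and 1.01 in DN, with 1.15, 1.49 and 1.76 in DN-SM. All DN-SM libraries lay above all SHAM libraries, with a log2 fold change of 1.29 (SE 0.46, edgeR adjusted p = 0.25). That value was 2.04 (edgeR adjusted p = 0.082) without SHAM replicate 3 and 0.87 (0.279) without SHAM replicate 2. The level is uncertain, since its counts were fractional in all 9 libraries and its transcript in the files, of 2616 bases, is longer than the 920 bases that the gene spans in RefSeq's GRCr8 table, where Psmb5 is its neighbour.

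The cap is built from a base of ATPases and scaffold subunits and a lid. Of the 6 ATPases, which unfold the substrate, 5 had mean levels of 72.8 to 93.9 FPKM and log2 fold changes of -0.10 to 0.08 in DN against SHAM and -0.06 to 0.12 in DN-SM against DN. Psmc6, the sixth, was lower, at 12.60, 15.72 and 6.31 FPKM in SHAM, 6.53, 8.91 and 10.36 in DN, then 14.67, 15.05 and 15.29 in DN-SM. The DN-SM libraries were nearly equal and above all DN libraries, and SHAM replicate 3 lay below all DN libraries. The log2 fold change of Psmc6 was -0.51 (SE 0.27, edgeR adjusted p = 0.302) in DN against SHAM, 0.91 (SE 0.27, edgeR adjusted p = 0.178) in DN-SM against DN and 0.40 (SE 0.27, edgeR adjusted p = 0.573) in DN-SM against SHAM. Without SHAM replicate 3 it was -0.80 (edgeR adjusted p = 0.0183) in DN against SHAM, 0.91 (0.0153) in DN-SM against DN and 0.12 (0.867) in DN-SM against SHAM. Without SHAM replicate 2 the value in DN against SHAM was -0.15 (edgeR adjusted p = 0.799) and that in DN-SM against SHAM 0.76 (0.112). Psmc6 also had fractional counts in all 9 libraries and 2 symbols of copies in RefSeq, and its gene overlaps Styx in that table.

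Among the 3 non-ATPase genes of the base, Psmd1, a scaffold that binds ubiquitin receptors, was at 43.13, 47.82 and 27.35 FPKM in SHAM, 28.27, 29.38 and 32.92 in DN, with 44.54, 39.32 and 40.94 in DN-SM. DN-SM lay above DN without overlap, and SHAM replicate 3 was again the lowest library of all. Psmd1 had the smallest p of the members in DN-SM against DN, at a log2 fold change of 0.56 (SE 0.17, edgeR adjusted p = 0.174), and had -0.46 (SE 0.17, edgeR adjusted p = 0.140) in DN against SHAM. Without SHAM replicate 3 these were 0.57 (edgeR adjusted p = 0.0223) and -0.66 (edgeR adjusted p = 0.00856), and without SHAM replicate 2 the latter was -0.24 (edgeR adjusted p = 0.439). Psmd2, the other large scaffold, was the most abundant cap gene and was lowest in DN-SM at 95.5 ± 3.66 FPKM, where SHAM had 117.4 ± 6.05 and DN 107.8 ± 4.69 (SD, n = 3). Its log2 fold change in DN-SM against SHAM was -0.28 (SE 0.11, edgeR adjusted p = 0.292). By group means the 2 scaffolds stood in different orders across the groups, but the difference between them was not tested. Psmd1 had 0.10 in DN-SM against SHAM, and -0.09 without SHAM replicate 3. Psmd4, a ubiquitin receptor, had -0.16 (SE 0.12) in DN against SHAM and 0.16 (SE 0.12) in DN-SM against DN.

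The 8 lid genes had mean levels from 11.4 FPKM (Psmd14, the deubiquitinase of the lid) to 85.7 (Psmd3) and log2 fold changes of -0.24 to 0.20 in DN against SHAM. Psmd12, chosen after its values were seen, was at 38.93, 46.58 and 30.45 FPKM in SHAM, 29.70, 35.74 and 38.75 in DN, then 40.33, 42.75 and 46.05 in DN-SM. DN-SM lay above DN in all libraries (0.41, SE 0.16, edgeR adjusted p = 0.221), and a fit of DN and DN-SM alone called it (0.41, edgeR adjusted p = 0.0393). Psmd6 was at 33.58, 34.31 and 29.59 FPKM in SHAM, 23.61, 31.20 and 34.54 in DN, with 34.84, 36.90 and 34.41 in DN-SM, with 0.35 (SE 0.13, edgeR adjusted p = 0.217) in DN-SM against DN. Its DN and DN-SM libraries overlapped on FPKM but not on CPM. Psmd7, which pairs with Psmd14 in the lid, was at 64.51, 71.25 and 67.11 FPKM in SHAM, 56.05, 62.37 and 64.33 in DN, then 65.15, 57.08 and 67.16 in DN-SM (DN against SHAM -0.23, SE 0.12, edgeR adjusted p = 0.271). Psmd14 itself, also chosen after its values were seen, was at 8.88, 10.47 and 9.16 FPKM in SHAM, 10.85, 11.09 and 12.77 in DN, with 12.20, 13.45 and 13.53 in DN-SM. On FPKM SHAM lay below all 6 libraries of injured muscle, while on CPM SHAM and DN overlapped. Psmd14 had the smallest p of the members in DN-SM against SHAM (0.47, SE 0.15, edgeR adjusted p = 0.192). In the opposite direction, the lid genes Psmd3, Psmd8 and Psmd13 lay below DN in all DN-SM libraries, with log2 fold changes of -0.20, -0.25 and -0.08. Summed over the base and lid, the cap stood at 0.867 to 0.888 of the summed FPKM of the 20S core in SHAM, at 0.833 to 0.857 in DN and at 0.843 to 0.909 in DN-SM, so the ratio in DN lay below SHAM in every library and overlapped DN-SM.

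In all, 5 members stood above DN in all DN-SM libraries on both scales: Psma3, Psmc6, Psmd1, Psmd12 and Psme4. On FPKM these were all of the members higher in DN-SM without overlap, 5 of 49, where 11.4% of all genes were, and 16 of 49 were lower without overlap, where 21.3% were; on CPM 12 were higher (17% of all genes) and 8 lower (13.3%). In DN against SHAM 7 members were higher and 4 lower without overlap on FPKM (15.9% and 6.91% of all genes), and 4 and 3 on CPM (14.1% and 10.1%). In DN-SM against SHAM 3 were higher and 11 lower on FPKM (7.49% and 9.34%), and 2 and 5 on CPM (9.36% and 8.98%). In a fit of DN and DN-SM alone edgeR called 4 members, all higher in DN-SM (Psma3, Psmc6, Psmd1 and Psmd12), where 5.96% of the 9934 genes tested were called higher and 1.25% lower; in a fit of DN and SHAM alone it called 0, where 1.04% of 9916 genes were called higher and 0.534% lower. Without SHAM replicate 3 it called 5 members in DN against SHAM, Psmb9 higher and Psma3, Psmc6, Psmd1 and Psme4 lower, where 4.19% of all genes were called higher and 7.29% lower.

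**Figure D4:**
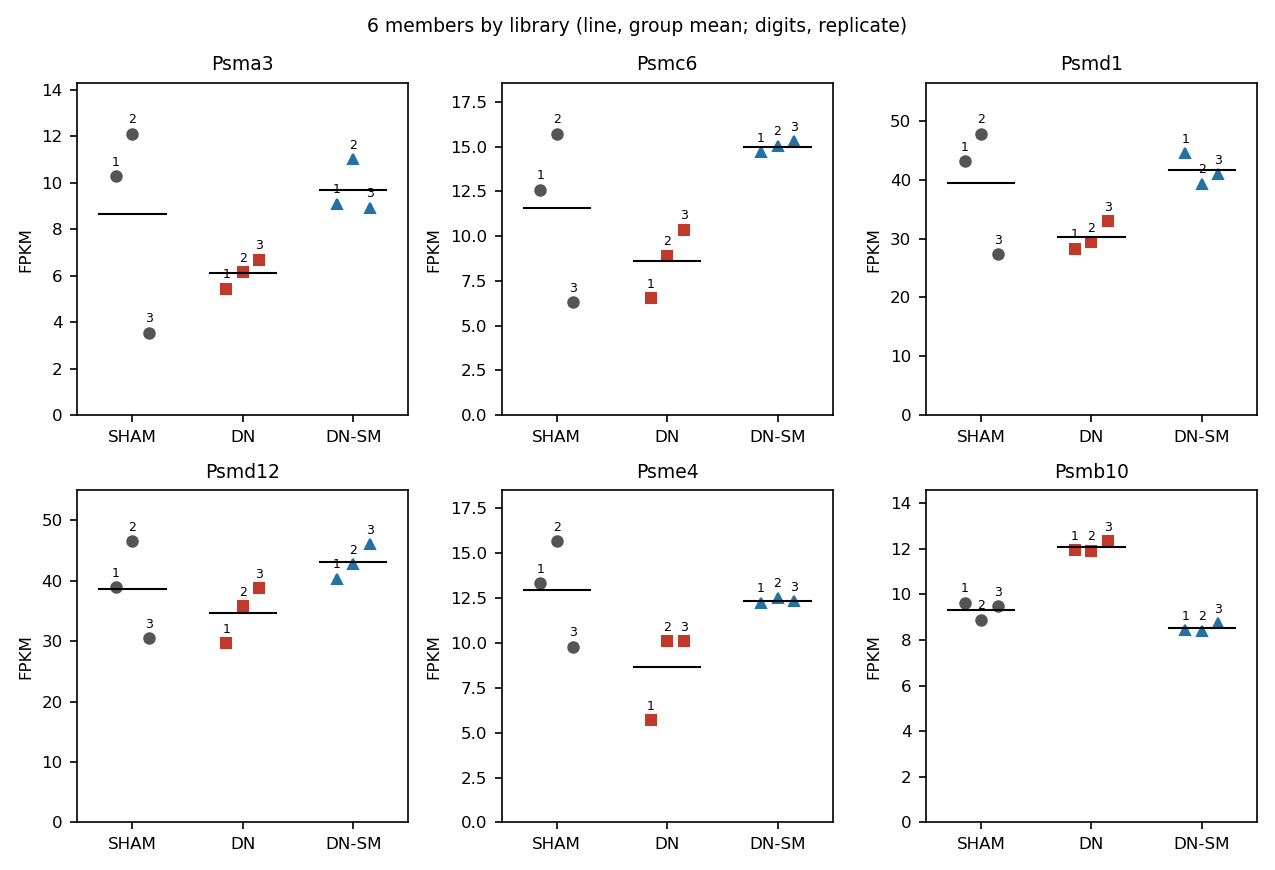
FPKM by library of the 5 members that lay above DN in all DN-SM libraries on both scales, and of Psmb10 (points are libraries with their replicate number, lines are group means, axes start at 0). SHAM replicate 3 is the lowest SHAM library of the 5, at 3.55 to 30.45 FPKM, and Psmb10 shows DN at 11.92 to 12.34 FPKM above both other groups.

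The activators replace the cap at the ends of the core. Psme1 and Psme2 form the interferon-inducible 11S ring, Psme3 the nuclear one, and Psme4 (PA200) is a single large protein linked to histone degradation. Psme1 was at 69.35, 61.28 and 73.52 FPKM in SHAM, 82.41, 81.73 and 87.19 in DN, then 73.73, 52.43 and 78.04 in DN-SM. DN lay above both other groups on FPKM (DN against SHAM 0.22, SE 0.15, edgeR adjusted p = 0.391; DN-SM against DN -0.20, SE 0.15, edgeR adjusted p = 0.473). The latter was -0.04 (edgeR adjusted p = 0.928) without DN-SM replicate 2, its lowest library, and -0.31 (0.407) without DN-SM replicate 3. Its partner Psme2 was at 22.11, 17.51 and 22.70 FPKM in SHAM, 21.77, 24.46 and 30.59 in DN, with 27.07, 18.86 and 26.57 in DN-SM, with overlap of all groups (0.22, SE 0.17, and 0.02, SE 0.17). The ratio of Psme1 to Psme2 was 3.14 to 3.5 in SHAM, 2.85 to 3.79 in DN and 2.72 to 2.94 in DN-SM, with DN-SM below SHAM in every library. Psme3 was even across libraries, at 28.83, 25.23 and 24.20 FPKM in SHAM, 25.97, 26.12 and 27.67 in DN, then 25.26, 25.48 and 27.26 in DN-SM (DN against SHAM -0.04, SE 0.10; DN-SM against DN 0.06, SE 0.10). Psme4 was at 13.31, 15.67 and 9.78 FPKM in SHAM, 5.69, 10.10 and 10.09 in DN, with 12.23, 12.50 and 12.30 in DN-SM. DN lay below DN-SM in every library, and on FPKM SHAM replicate 3 lay between the DN values, while on CPM Psme4 was the 1 member lower in DN than in both other groups, a pattern of 4.15% of all genes; on FPKM 0 of 49 members had it, against 2.12%. Its log2 fold change was -0.67 (SE 0.21, edgeR adjusted p = 0.0953) in DN against SHAM, 0.62 (SE 0.21, edgeR adjusted p = 0.195) in DN-SM against DN and -0.05 (SE 0.21, edgeR adjusted p = 0.949) in DN-SM against SHAM. Without SHAM replicate 3 the first of these was -0.82 (edgeR adjusted p = 0.0315) and without SHAM replicate 2 it was -0.45 (edgeR adjusted p = 0.272). The second was 0.42 (edgeR adjusted p = 0.395) without DN replicate 1. DN replicate 1 was the lowest library for Psme4, and its transcript, of 7327 bases, was the longest of the members. The ratio of Psme4 to Psme3 was 0.404 to 0.621 in SHAM, 0.219 to 0.387 in DN and 0.451 to 0.491 in DN-SM. Psme2 and Psme3 had fractional expected counts in all 9 libraries, and RefSeq lists 3 and 4 symbols of their copies. Their levels, and both ratios that rest on them, are thus uncertain.

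Psmf1, the inhibitor PI31, differed by less than 0.15 on the log2 scale in all comparisons, with 27.16, 23.24 and 24.12 FPKM in SHAM, 24.19, 24.72 and 27.13 in DN, then 21.68, 23.63 and 21.94 in DN-SM (DN against SHAM -0.04, SE 0.11; DN-SM against SHAM -0.12, SE 0.11). Among the chaperones, Psmg1, which with Psmg2 starts the assembly of the alpha ring, was at 21.77, 24.05 and 23.66 FPKM in SHAM, 19.24, 22.20 and 21.17 in DN, with 20.88, 18.68 and 20.04 in DN-SM. Psmg2 was at 9.44, 7.19 and 8.41, then 9.51, 9.90 and 11.63, then 8.81, 9.43 and 8.47 FPKM in the same order. The partners thus differed in sign in DN against SHAM, with -0.23 (SE 0.14, edgeR adjusted p = 0.356) for Psmg1 and 0.24 (SE 0.16, edgeR adjusted p = 0.398) for Psmg2; the difference between them was not tested. Psmg4 had -0.02 (SE 0.17). Psmd10 (gankyrin), a chaperone of the cap base, was at 5.42, 6.46 and 5.50 FPKM in SHAM, 4.11, 5.28 and 4.69 in DN, then 6.89, 5.32 and 5.22 in DN-SM, with all DN libraries below SHAM on FPKM (-0.38, SE 0.25, edgeR adjusted p = 0.393). The other cap chaperones Psmd5 and Psmd9 had 0.21 (SE 0.16) and -0.09 (SE 0.14) in DN against SHAM.

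The genes that share only the prefix were low or even. Psmc3ip, a partner of recombinases in meiosis, was at 4.66, 4.49 and 4.15 FPKM in SHAM, 3.52, 3.62 and 3.57 in DN, with 3.79, 4.03 and 2.73 in DN-SM. SHAM lay above all other libraries on FPKM (DN against SHAM -0.39, SE 0.24, edgeR adjusted p = 0.362). Psme3ip1 was at 14.13, 15.09 and 18.14 FPKM in SHAM, 17.99, 15.63 and 16.50 in DN, then 13.75, 14.91 and 14.23 in DN-SM, with 0.00 (SE 0.16) in DN against SHAM.

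Genes that work with the proteasome were examined beside it. Of 16 partners (the chaperone Pomp, receptors, shuttle factors and deubiquitinases) 14 were measured and 0 of 14 passed the test in any comparison; at an unadjusted p under 0.05 edgeR gave 1 of them, lower, in DN against SHAM (22.3% of all genes), 6 in DN-SM against DN, 5 higher and 1 lower (17.6%), and 0 in the comparison of DN-SM with SHAM (12.8%). Zfand5, a muscle atrophy factor that stimulates the proteasome, had the smallest p, at 27.57, 37.37 and 19.84 FPKM in SHAM, 17.12, 17.65 and 18.25 in DN, with 20.76, 24.41 and 24.59 in DN-SM (DN against SHAM -0.76, edgeR adjusted p = 0.0548). Of 8 regulators of proteasome genes 7 were measured and 0 of 7 passed in any comparison. Nfe2l1 was the regulator not measured, so nothing is known of its level here. Among those measured Ddi2, the protease that activates Nfe2l1, had the smallest p, in DN-SM against SHAM (-0.52, edgeR adjusted p = 0.165). Of 12 genes of antigen processing, the pathway that the immunoproteasome serves, 11 were measured and 10 of 11 had a log2 fold change above 0 in DN against SHAM (48.7% of all genes), with a median of 0.40, and 1 of 11 passed the test (4.26% of all genes). B2m, the light chain of MHC class I, rose (0.75, edgeR adjusted p = 0.0285), at 151.04, 85.30 and 91.89 FPKM in SHAM, 167.98, 196.62 and 206.62 in DN, with 156.81, 145.14 and 199.27 in DN-SM. Tap1, chosen after its values were seen because it lies between Psmb8 and Psmb9 in RefSeq's table, was at 3.62, 2.87 and 3.69 FPKM in SHAM, 4.71, 6.14 and 5.39 in DN, then 3.80, 3.26 and 3.78 in DN-SM, with DN above both other groups (DN against SHAM 0.60, edgeR adjusted p = 0.0625).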

How the data were processed

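Each deposited file lists genes with an FPKM and an expected count; per the file headers the expected count is RSEM's estimate, not normalized by the authors, and FPKM was scaled by the authors to transcript length and library size. HISAT2, RSEM and GATK are named, with build rn6, per the submitters' processing notes; versions and settings are not given in the sources used here. A gene that a file does not list was taken as 0. Of 13752 gene IDs, 13649 were matched to RefSeq symbols by ID and 7 by transcript accession, and 96 had none. Promoter sequences are RefSeq's, build GRCr8, and were matched by gene.

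Rounded expected counts were tested with the two-sided quasi-likelihood F test of edgeR 4.0.16 (robust; R 4.3.3) with TMM factors and filterByExpr (minimum count 10, minimum total 15), which kept 10129 genes. A single fit held the 9 libraries, with group alone as covariate. P-values were adjusted by Benjamini-Hochberg over all genes tested, with a threshold of 0.05. SE is the absolute log2 fold change divided by the root of F. CPM were scaled by the TMM factors. The fit was tested on simulated data. RefSeq lists 48 pseudogenes with these prefixes, none of which occurs in the files; 19 members have such a copy or a like symbol, and 8 had fractional counts (tolerance 0.005), so reads can be shared. Values in every library are given for members called, the catalytic pairs, the activators and the members with the smallest p of each role in DN against SHAM and in DN-SM against DN. Some items are not reported here. Members, lists and rules were chosen with earlier results of these data known.

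Alternatives were RLE and upper-quartile factors, DESeq2 1.42.0, fits of only the groups compared, other filters (none, or a CPM of 1 in 3 libraries), a block for the replicate number, limma 3.58.1 with trend on log2 FPKM (pseudocount 1 or 0.1, with an FPKM filter at 1 in 3 libraries or none) and each library left out. Added after seeing the data was an offset that takes out the dependence on transcript length in each library (loess, span 0.5), with all groups or only those compared. The labels do not say whether replicate numbers pair libraries. Deviations from the group means correlated at -0.048 to 0.109 for same-numbered libraries. For libraries of different groups and numbers the range was -0.097 to 0.066. With 3 libraries a group these values cannot decide whether libraries were paired.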

Additional observations from a re-analysis of the deposited data

How the results depend on the processing

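The number of members called was 0 in DN-SM against SHAM under every alternative run. In DN against SHAM it was 0 under every alternative but DESeq2, which called 1, and the fits that left out a library, which called between 0 and 5; the 5 came without SHAM replicate 3. In DN-SM against DN it was 1 by DESeq2 and 4 in the fit of only the groups compared, also with the length trend removed (4), and between 0 and 3 when a library was left out, with 2 without SHAM replicate 2 and 3 without SHAM replicate 3. For DN-SM against DN the share of all genes called is given above only for the main fit and the fit of these groups alone. The other counts of members therefore cannot be set against all genes. The cause of the differences between fits was not tested. With the replicate number as a block (replicate block), 0 members were called in each comparison, as without it. The alternatives were compared with the main fit for the members that the rule chose for values in every library. Psmd12 and Psmd14, chosen after their values were seen, are not in this tally. Of these alternatives, 1471 kept direction and side of the threshold, 18 passed it in the same direction and 82 gave an uncalled value of the other sign. The main fit called 0 members, so there was no call to reverse. The 63 medians moved by less than the spread between libraries. Depth and 3 libraries a group limit the least abundant members: the SE of Psmb11 was 0.475 in DN against SHAM, against a median of 0.137.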
